A study of Macaca fascicularis
Homo sapiens with 2 samples.

Results

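The genes described here are axon guidance ligands and receptors, chosen by symbol alone. They are the ephrins (EFNA, EFNB) and Eph receptors (EPHA, EPHB), the slits SLIT1 to SLIT3 and the robo receptors, the netrins with the receptors DCC, NEO1 and UNC5, and the semaphorins with the plexins and the neuropilins NRP1 and NRP2. UNC5CL and the SLITRK genes, which share letters with these families, were left out. The rule took 136 of the 43173 genes in the files, 73 of 20669 human genes and 63 of 22504 cynomolgus genes. UNC50 met the letters of the rule but is no netrin receptor, and it is left out of every count that follows, which leaves 72 human and 62 cynomolgus genes. Of the human members, 10 had no cynomolgus gene of the same symbol: EFNA1, EPHA10, NTN3, NTN5, PLXNB3, PLXNC1, ROBO3, ROBO4, SEMA4D and SEMA6C.

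The cells came from 1 human line, the embryonic stem cell line H9, and from 1 cynomolgus macaque line, the induced pluripotent line 56A1, both with a knockout of UGP2, the gene of the enzyme that makes UDP-glucose. Day 0 cells were pluripotent cells in UPPS medium, and day 7 cells had spent 7 days in neural induction medium with SB431542 at 10 µM and LDN193189 at 100 nM, which block NODAL/activin and BMP receptors. The species were mixed before capture, so each day was 1 droplet library (10x Chromium 3' v3.1) and the 4 groups compared were human and cynomolgus cells on day 0 and on day 7. All 4 groups carried the knockout, so its effect was not measured.

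Guidance molecules steer growing axons and migrating cells by attraction or repulsion at the cell surface. Ephrins are membrane-bound ligands of the Eph tyrosine kinases and signal on contact, slits are secreted repellents read by robo receptors, netrins attract through DCC and NEO1 and repel through UNC5 receptors, and semaphorins act through plexins, for many secreted forms together with a neuropilin. Before any axon forms, the same families help set boundaries and cell positions in the neural plate, and several are also made by pluripotent stem cells.

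Barcodes with at least 1000 UMIs were assigned to a species when at least 90% of their UMIs mapped to its genome. This gave 5206 human and 2016 cynomolgus cells on day 0 and 8173 and 6467 on day 7, with group medians of 4596 to 6408.5 own-species UMIs per cell. On day 0, 4473 of 11695 barcodes were assigned to neither species, and 1476 of 16116 on day 7. The libraries shared 50 barcodes, of which 30 were among the cells kept. Levels are given as CPM (counts per 1000000), relative to the own-species, non-mitochondrial UMIs summed over the cells of a group, which were 34670316 and 43723892 UMIs in human and 10683788 and 34639499 UMIs in cynomolgus cells. With 1 library per day there is no replicate, so no test was possible, and the intervals given are 95% counting intervals for these libraries. The libraries are tagged at the 3' end, so levels are compared for 1 gene between groups and not between genes, and levels of a gene in the 2 species rest on different gene models.

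The labelled cell states were checked against marker lists. From day 0 to day 7, summed pluripotency markers went from 4191 to 729.7 CPM in human cells and from 909.8 to 116 CPM in cynomolgus cells. Summed neural progenitor markers went from 612 to 2219 CPM in human cells and from 385 to 2125 CPM in cynomolgus cells. Only 5 of the 8 pluripotency and 10 of the 12 neural progenitor markers had a cynomolgus gene, so the sums of the species cover different genes. Of markers that reached 5 CPM, 7 of 8 and 8 of 11 moved this way at least 2-fold in human cells, but not SIX6 and OTX2. In cynomolgus cells 3 of 4 and 8 of 8 did, while LIN28A went from 52.4 to 76.6 CPM. Neuron markers were at 76.7 and 556 CPM in human cells against 97.7 and 285 CPM in cynomolgus cells, with ELAVL4 and NEUROG2 at 0 on day 0 in human cells and NEUROD1 and NEUROG2 at 0 on day 0 in cynomolgus cells. MAP2, a microtubule protein of dendrites, made up most of the day 7 sums, at 36.0 and 517 CPM in human and at 56.6 and 180 CPM in cynomolgus cells. The other 9 neuron markers summed to 40.7 and 38.6 CPM in human and to 41.1 and 104 CPM in cynomolgus cells, and GAP43 was lower on day 7 in both, at 25.4 and 8.42 CPM and at 21.5 and 5.74 CPM. Endothelial markers are the list of another cell type that uses Eph, plexin and robo receptors. They were at 62.8 and 21.2 CPM in human cells against 55.6 and 14.0 CPM in cynomolgus cells. KDR, at 32.6 and 2.97 CPM, and EGFL7, at 26.2 and 14.6 CPM, made up most of the human sums. PECAM1, CDH5 and CLDN5 were under 1 CPM in human cells on both days. In cynomolgus cells EGFL7 was at 28.4 and 10.3 CPM, KDR at 12.8 and 0.433 CPM and CDH5 at 7.86 and 0.144 CPM. Neural crest markers were at 25.5 and 7.89 CPM in human cells against 4.68 and 5.43 CPM in cynomolgus cells. FOXD3, which pluripotent cells also make, was at 23.2 and 0 CPM in human cells, while the other 6 crest markers summed to 2.22 and 7.89 CPM. The part of such cells in the results was not tested.

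In human cells, more guidance genes were higher than lower on day 7. A gene counts as measured if it reached 5 CPM on at least 1 of the days, and as higher or lower when log2((CPM day 7 + 1)/(CPM day 0 + 1)) is at least 1 from 0, a 2-fold difference. Of 72 human members 50 were measured, 17 of them were higher and 9 lower on day 7. Of the 12010 human genes measured, 14.9% were higher and 14.4% lower. The median log2 change was 0.29 over the measured members and 0.05 over the measured genes. Without the minimum level, 18 of 72 members were higher and 11 lower, against 10.3% and 10.2% of 20656 genes.

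In cynomolgus cells the split was similar. Of 62 members 47 were measured, 15 of them higher and 8 lower, against 13.8% higher and 11% lower of the 11276 cynomolgus genes measured. The median log2 change was 0.33 over the measured members and 0.06 over the measured genes. Without the minimum level, 17 of 62 members were higher and 9 lower, against 8.31% and 6.92% of 22491 genes.

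**Figure D1:**
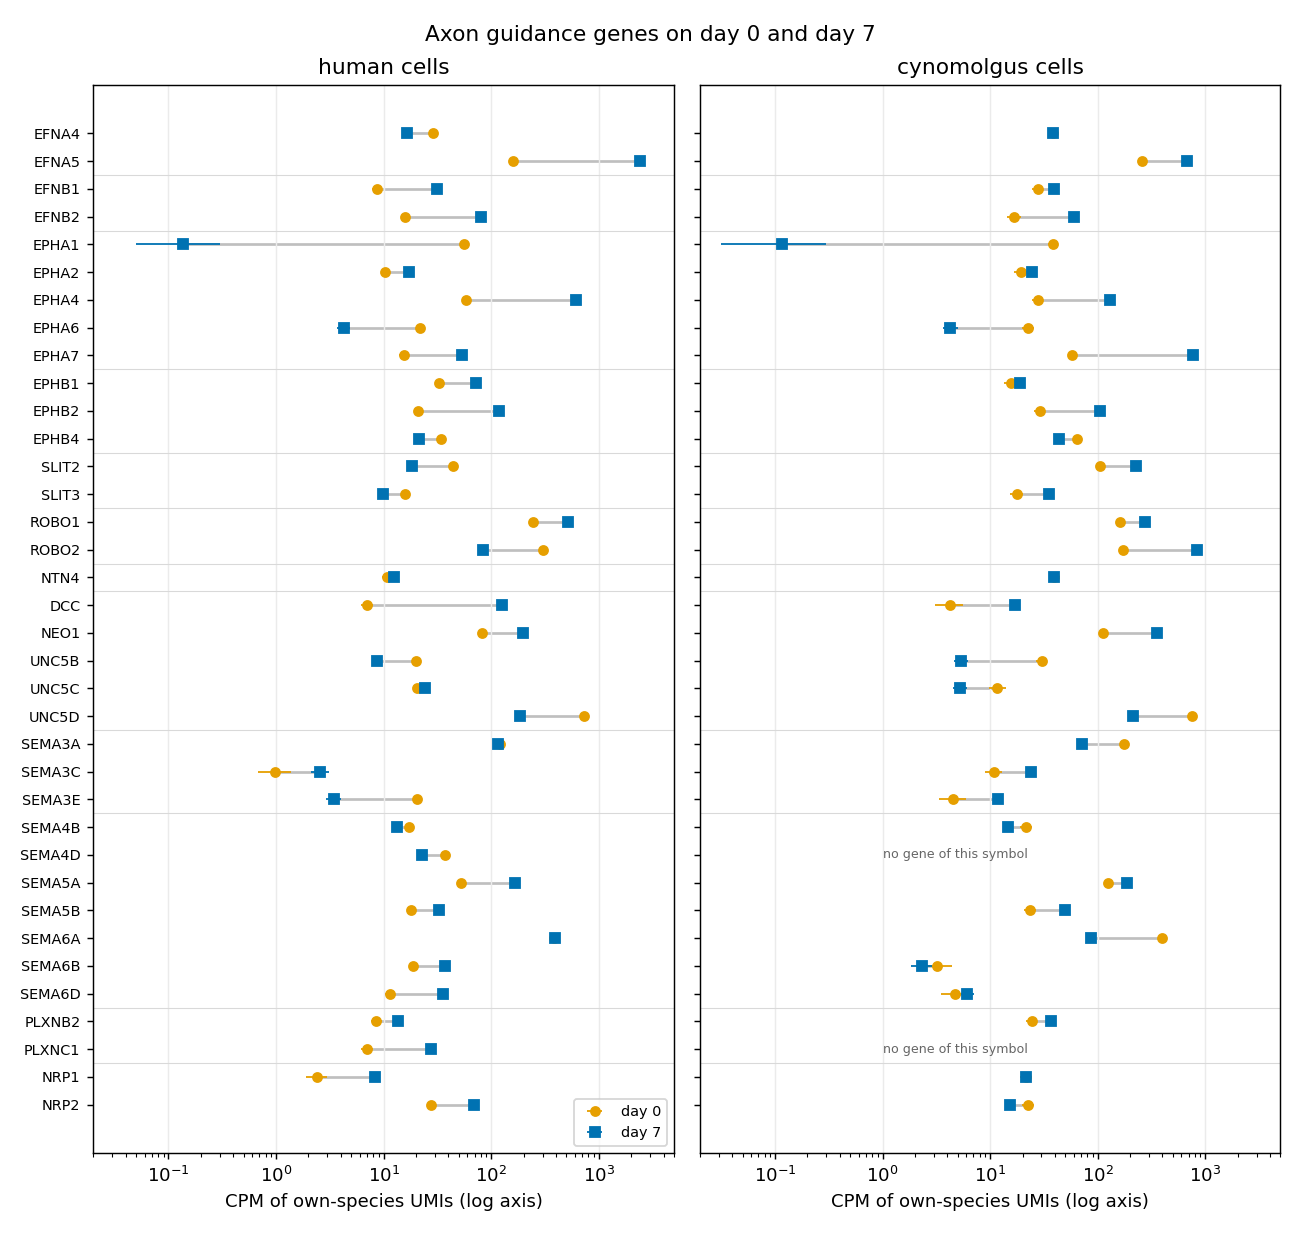
Levels of the 36 guidance genes that reached 20 CPM in at least 1 of the 4 groups, as CPM of own-species UMIs on a log axis, in human cells (left) and cynomolgus cells (right), with genes grouped by role from ephrins at the top to neuropilins at the bottom. Circles are day 0, squares are day 7, horizontal lines through the points are exact Poisson 95% intervals, and grey bars join the days; EPHA1 drops to near 0 in both species, while ROBO2 moves left in human and right in cynomolgus cells.

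Among the ephrins, EFNA5, a GPI-anchored ligand of EphA receptors, was far higher on day 7 in human cells. EFNA5 (ENSG00000184349) was at 158 CPM (154 to 162) on day 0 and 2415 CPM (2401 to 2430) on day 7 in human cells. In cynomolgus cells EFNA5 (ENSMFAG00000000459) was at 259.9 CPM (250.3 to 269.8) on day 0 and 679 CPM (670.0 to 687) on day 7. The human cells of day 7 thus stood apart from the other 3 groups, with a 15.3-fold higher level than on day 0 (14.9 to 15.7), against 2.61-fold (2.51 to 2.72) in cynomolgus cells. EFNB2, a transmembrane ligand of EphB receptors and EPHA4 that also signals into its own cell, was at 16.0 and 81.0 CPM in human and at 16.8 and 59.8 CPM in cynomolgus cells on days 0 and 7. It was thus higher on day 7 in both, 5.08-fold (4.64 to 5.56) and 3.57-fold (3.06 to 4.18). In cynomolgus cells 29.5% and 31.3% of the UMIs of either EFNB2 copy lay on the human copy, so the cynomolgus level is of the part assigned to its own genome.

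The other ephrins moved less or lay lower. EFNB1, an X-linked ligand of EphB receptors, was at 8.68 and 31.4 CPM in human and at 27.7 and 39.0 CPM in cynomolgus cells. It was 3.61-fold higher on day 7 in human (3.19 to 4.11) and 1.41-fold in cynomolgus cells (1.24 to 1.6), where 19.8% and 17.6% of the UMIs of either copy lay on the human copy. EFNA4, an EphA ligand, was at 28.6 and 16.6 CPM in human and at 38.7 and 38.4 CPM in cynomolgus cells, so its days lay 1.73-fold apart in human cells and within counting error in cynomolgus cells. EFNA2 was at 9.32 and 19.9 CPM in human and at 3.0 and 13.2 CPM in cynomolgus cells, log2 changes of 1.02 and 1.83. Of the measured ephrins, 4 of 6 in human and 3 of 6 in cynomolgus cells were at least 2-fold higher on day 7 and 0 were lower. Over all measured genes, 14.9% of human and 13.8% of cynomolgus genes were higher, and 14.4% and 11% lower.

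Of the EphA receptors, EPHA4 had the larger change in human cells and EPHA7 in cynomolgus cells. EPHA4, which binds ephrins of both classes, was at 58.8 CPM (56.3 to 61.4) and 617 CPM (609.5 to 624) in human cells on days 0 and 7. EPHA4 was at 27.6 CPM (24.6 to 30.9) and 131 CPM (127 to 135) in cynomolgus cells. It was higher on day 7 in both, 10.5-fold (10 to 11) in human and 4.74-fold (4.21 to 5.35) in cynomolgus cells. EPHA7, an EphA receptor of the early forebrain, was at 15.3 CPM (14.0 to 16.7) and 53.4 CPM (51.2 to 55.6) in human cells. EPHA7 was at 57.8 CPM (53.3 to 62.5) and 766 CPM (757 to 775.5) in cynomolgus cells, 13.3-fold higher on day 7 (12.2 to 14.4) against 3.49-fold (3.17 to 3.84) in human cells. The order of the species was thus the reverse of that of EPHA4: human cells had the higher EPHA4 level on both days and cynomolgus cells the higher EPHA7 level on both days.

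EPHA1 and EPHA6 went the other way. EPHA1, an epithelial Eph receptor, was at 56.0 CPM (53.5 to 58.5) and 0.137 CPM (0.0504 to 0.299) in human cells. In cynomolgus cells EPHA1 was at 38.4 CPM (34.8 to 42.3) and 0.115 CPM (0.0315 to 0.296). The day 7 values rest on 6 and 4 UMIs, so the folds are wide, 408-fold lower (187 to 1113) in human and 332-fold lower (129 to 1226) in cynomolgus cells. EPHA6 was at 22.0 and 4.25 CPM in human and at 22.4 and 4.27 CPM in cynomolgus cells, 5.17-fold lower (4.40 to 6.10) and 5.24-fold lower (4.25 to 6.47), with nearly equal values in the 2 species on each day. EPHA2, a receptor found in pluripotent and epithelial cells, was at 10.4 and 17.3 CPM in human and at 19.3 and 24.5 CPM in cynomolgus cells, under 2-fold in each.

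EphB receptors were higher or little moved. EPHB2 was at 21.0 and 119 CPM in human and at 28.9 and 105 CPM in cynomolgus cells, 5.66-fold (5.24 to 6.13) and 3.62-fold (3.22 to 4.08) higher on day 7. EPHB1 was at 32.7 and 71.9 CPM in human and at 15.6 and 19.0 CPM in cynomolgus cells, 2.20-fold (2.05 to 2.35) and 1.22-fold (1.02 to 1.45) higher. EPHB4, best known from the veins, was at 34.1 and 21.5 CPM in human and at 64.2 and 43.2 CPM in cynomolgus cells, 1.59-fold and 1.49-fold lower on day 7. Over both Eph classes, 4 of the 9 measured receptors were higher and 2 lower in human cells, and 3 of 10 higher and 2 lower in cynomolgus cells.

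SLIT2, SLIT3 and ROBO2 went opposite ways in the species. SLIT2, a secreted repellent of the midline, was at 44.4 CPM (42.2 to 46.6) on day 0 and 18.5 CPM (17.2 to 19.8) on day 7 in human cells. SLIT2 was at 105 CPM (99.1 to 111.5) and 226 CPM (221 to 231) in cynomolgus cells. It was thus 2.40-fold lower (2.20 to 2.62) on day 7 in human and 2.15-fold higher (2.02 to 2.29) in cynomolgus cells. SLIT3 was at 15.7 and 9.95 CPM in human and at 17.6 and 35.1 CPM in cynomolgus cells, 1.58-fold lower (1.39 to 1.80) and 1.99-fold higher (1.71 to 2.34). SLIT1 was low, at 1.10 and 3.50 CPM in human and at 1.68 and 9.21 CPM in cynomolgus cells, where its log2 change was 1.93.

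ROBO2 and ROBO1 are the slit receptors that steer most vertebrate axons. ROBO2 (ENSG00000185008) was at 303 CPM (297 to 309) on day 0 and 83.3 CPM (80.6 to 86.0) on day 7 in human cells. In cynomolgus cells ROBO2 (ENSMFAG00000000082) was at 173 CPM (165 to 181) and 832 CPM (822 to 841.5). It was 3.64-fold lower (3.51 to 3.78) on day 7 in human and 4.8-fold higher (4.58 to 5.04) in cynomolgus cells, so the species that had more on day 0 had less on day 7. ROBO1 was at 246 and 522 CPM in human and at 160.5 and 275 CPM in cynomolgus cells, higher on day 7 in both, 2.12-fold (2.07 to 2.17) and 1.71-fold (1.63 to 1.81). ROBO3, which lets commissural axons cross the midline and is annotated here in human only, was at 6.11 and 7.43 CPM.

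The netrins NTN1 and NTN4 lay within 2-fold between the days in both species. NTN1, the classic attractant of the floor plate, was at 7.5 and 9.15 CPM in human and at 17.3 and 19.8 CPM in cynomolgus cells. NTN4, a basement membrane netrin, was at 10.6 and 12.5 CPM in human and at 39.5 and 39.6 CPM in cynomolgus cells. NTNG1, a membrane-anchored relative that does not bind DCC, was at 5.57 and 1.35 CPM in human and at 8.05 and 5.02 CPM in cynomolgus cells, log2 changes of -1.48 and -0.59.

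DCC, the attractive netrin receptor of commissural axons, was at 6.95 CPM (6.10 to 7.89) and 125 CPM (122 to 128) in human cells. DCC was at 4.21 CPM (3.07 to 5.64) and 17.2 CPM (15.9 to 18.6) in cynomolgus cells. It was 18.0-fold (15.8 to 20.5) and 4.08-fold (3.01 to 5.66) higher on day 7, and the human day 7 cells had the high level among the 4 groups. The cynomolgus change depended on which barcodes were called cynomolgus on day 0. DCC was at 4.21 CPM in the 2016 barcodes with at most 10% human UMIs, and at 29.7 CPM in the 2450 barcodes with 10% to 20%. Other members also differed between these barcodes. UNC5C was at 11.7 and 31.4 CPM and SEMA3E at 4.49 and 13.4 CPM, while UNC5D was at 749 and 550 CPM. With the call at 80% of UMIs the log2 change of DCC in cynomolgus cells was 0.16 in place of 1.80. NEO1, a receptor of netrins and of RGM proteins, was at 82.3 and 199.7 CPM in human and at 112 and 356.5 CPM in cynomolgus cells, 2.42-fold (2.32 to 2.53) and 3.17-fold (2.99 to 3.37) higher on day 7.

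The UNC5 receptors, which turn the netrin response into repulsion, were mostly lower on day 7. UNC5D (ENSG00000156687) was at 727 CPM (718.5 to 736.5) and 186 CPM (182 to 190.1) in human cells. UNC5D (ENSMFAG00000039158) was at 749 CPM (733 to 766) and 212 CPM (207 to 217) in cynomolgus cells. The species lay close together on each day, 3.91-fold lower (3.81 to 4.01) and 3.54-fold lower (3.43 to 3.65) on day 7. UNC5B was at 20.2 and 8.76 CPM in human and at 30 and 5.37 CPM in cynomolgus cells, 2.30-fold (2.03 to 2.61) and 5.60-fold (4.66 to 6.74) lower. UNC5C was at 20.5 and 24.0 CPM in human and at 11.7 and 5.28 CPM in cynomolgus cells, log2 changes of 0.22 and -1.02. Both UNC5C changes rest on 1 cluster of day 0 cells in each species, described with the clusters: without it they were 2.82 and 0.45.

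Among the secreted semaphorins, SEMA3A, a repellent that acts through NRP1 and plexins, was at 120.1 and 115 CPM in human and at 174 and 72 CPM in cynomolgus cells. It was the same within counting error on the 2 days in human cells and 2.41-fold lower (2.27 to 2.56) on day 7 in cynomolgus cells. SEMA3E, which binds PLXND1 without a neuropilin, was at 20.6 CPM (19.1 to 22.1) and 3.45 CPM (2.92 to 4.05) in human cells. SEMA3E was at 4.49 CPM (3.31 to 5.96) and 11.8 CPM (10.7 to 13.0) in cynomolgus cells, so it was 5.95-fold lower (4.99 to 7.15) in human and 2.62-fold higher (1.94 to 3.61) in cynomolgus cells. On day 0, 31.4% of the SEMA3E UMIs of either copy in cynomolgus cells lay on the human copy, and 1.92% on day 7. With both copies summed the cynomolgus log2 change was 0.78 in place of 1.22, and with the call at 80% of UMIs it was 0.47. SEMA3C was at 0.981 and 2.58 CPM in human and at 10.8 and 23.9 CPM in cynomolgus cells, 2.22-fold higher on day 7 (1.82 to 2.72) in the latter. SEMA3D was at 6.35 and 2.47 CPM in human cells, while SEMA3F was at 5.15 and 1.76 CPM in cynomolgus cells, log2 changes of -1.08 and -1.16.

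Of the membrane semaphorins, SEMA6A, a transmembrane ligand of PLXNA2 and PLXNA4, was at 384 CPM (378 to 391) and 389 CPM (384 to 395) in human cells. SEMA6A was at 392 CPM (380.2 to 404) and 85.7 CPM (82.6 to 88.8) in cynomolgus cells. The 3 other groups lay together and the cynomolgus day 7 cells lay apart, 4.57-fold below day 0 (4.36 to 4.8). SEMA5A was at 52.5 and 167 CPM in human and at 125 and 187 CPM in cynomolgus cells, 3.18-fold (3.02 to 3.35) and 1.49-fold (1.41 to 1.59) higher on day 7. SEMA5B was at 17.9 and 32.8 CPM in human and at 23.5 and 50.1 CPM in cynomolgus cells, 1.83-fold (1.66 to 2.01) and 2.13-fold (1.87 to 2.44) higher. Both are class 5 semaphorins with thrombospondin repeats.

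SEMA6D was at 11.4 and 35.4 CPM in human and at 4.68 and 6.15 CPM in cynomolgus cells. It was 3.12-fold higher on day 7 in human cells (2.79 to 3.49) and 1.31-fold in cynomolgus cells (0.962 to 1.83), where 36.7% and 31.1% of the UMIs of either copy lay on the human copy. SEMA6B was at 18.9 and 37.3 CPM in human cells, 1.98-fold higher on day 7 (1.80 to 2.17). In cynomolgus cells SEMA6B was at 3.18 and 2.31 CPM and did not reach the minimum. The class 4 semaphorins moved less: SEMA4B was at 17.3 and 13.3 CPM in human and at 21.4 and 14.6 CPM in cynomolgus cells, and SEMA4D at 37.2 and 22.8 CPM in human cells. Over the membrane semaphorins, 2 of 9 measured genes were higher and 0 lower in human cells, and 1 of 7 higher and 1 lower in cynomolgus cells.

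The plexins and neuropilins, which receive semaphorins, were higher or little moved in human cells. PLXNC1, a receptor of SEMA7A annotated here in human only, was at 7.01 and 27.4 CPM, 3.91-fold higher on day 7 (3.40 to 4.50). PLXNB2 was at 8.54 and 13.7 CPM in human and at 24.3 and 36.6 CPM in cynomolgus cells. PLXNA2 was at 2.54 and 13.7 CPM in human and at 5.90 and 19.1 CPM in cynomolgus cells, log2 changes of 2.05 and 1.54. NRP1 was at 2.39 and 8.23 CPM in human and at 21.7 and 21.6 CPM in cynomolgus cells, 3.44-fold higher on day 7 in human (2.70 to 4.42) and the same within counting error in cynomolgus cells. NRP2 was at 27.4 and 69.1 CPM in human and at 22.7 and 15.3 CPM in cynomolgus cells, 2.52-fold higher (2.34 to 2.72) and 1.48-fold lower (1.26 to 1.72). For both neuropilins, then, the days lay further apart in human cells.

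Of the remaining members, 22 reached 5 CPM but not 20 CPM. Those at least 2-fold apart are given above. In human cells 11 others of this class were measured, with log2 changes from -0.09 to 0.78, and in cynomolgus cells 10, from -0.89 to 0.80. They include the plexins PLXNA1, PLXNA3 and PLXNB1. The 14 members under 5 CPM in every group were EFNA1, EPHA5, EPHA8, EPHA10, NTN3, NTN5, NTNG2, PLXNB3, ROBO4, SEMA3B, SEMA3G, SEMA4A, SEMA7A and UNC5A.

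Measured in both species were 39 members. Of these 9 were at least 2-fold higher on day 7 in both (DCC, EFNA2, EFNA5, EFNB2, EPHA4, EPHA7, EPHB2, NEO1 and PLXNA2) and 4 were lower in both (EPHA1, EPHA6, UNC5B and UNC5D), against 7.18% and 6.12% of the 9094 symbols measured in both. The log2 change of 5 members was at least 1 above in cynomolgus cells, against 7.92% of these symbols. They were EPHA7, ROBO2, SEMA3E, SLIT2 and SLIT3, with differences of 1.97, 4.11, 3.49, 2.32 and 1.57, which are 1 Eph receptor, 1 robo, 1 secreted semaphorin and 2 slits. It was at least 1 below for 12 members, against 7.19% of symbols: DCC, EFNA5, EFNB1, EPHA4, NRP1, NRP2, SEMA3A, SEMA5A, SEMA6A, SEMA6D, UNC5B and UNC5C. Their differences ran from -1.08 for SEMA5A to -2.54 for EFNA5. The median difference was -0.31 over the members and 0.01 over the symbols.

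ROBO2, SEMA3E and SLIT2 were at least 2-fold lower in human and at least 2-fold higher in cynomolgus cells. That is 3 of 39 members, against 0.759% of symbols at least 2-fold apart in opposite directions. Without a cluster of 80 cynomolgus cells of day 7, described with the clusters, ROBO2 was the 1 member left, with SLIT2 at 0.96 and SEMA3E at 0.85. With species called at 80% of UMIs, with both copies summed or with 5 CPM added, ROBO2 and SLIT2 were the 2 left. Each species is 1 line and was captured in the same 2 libraries, so species, line and clone cannot be told apart.

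**Figure D2:**
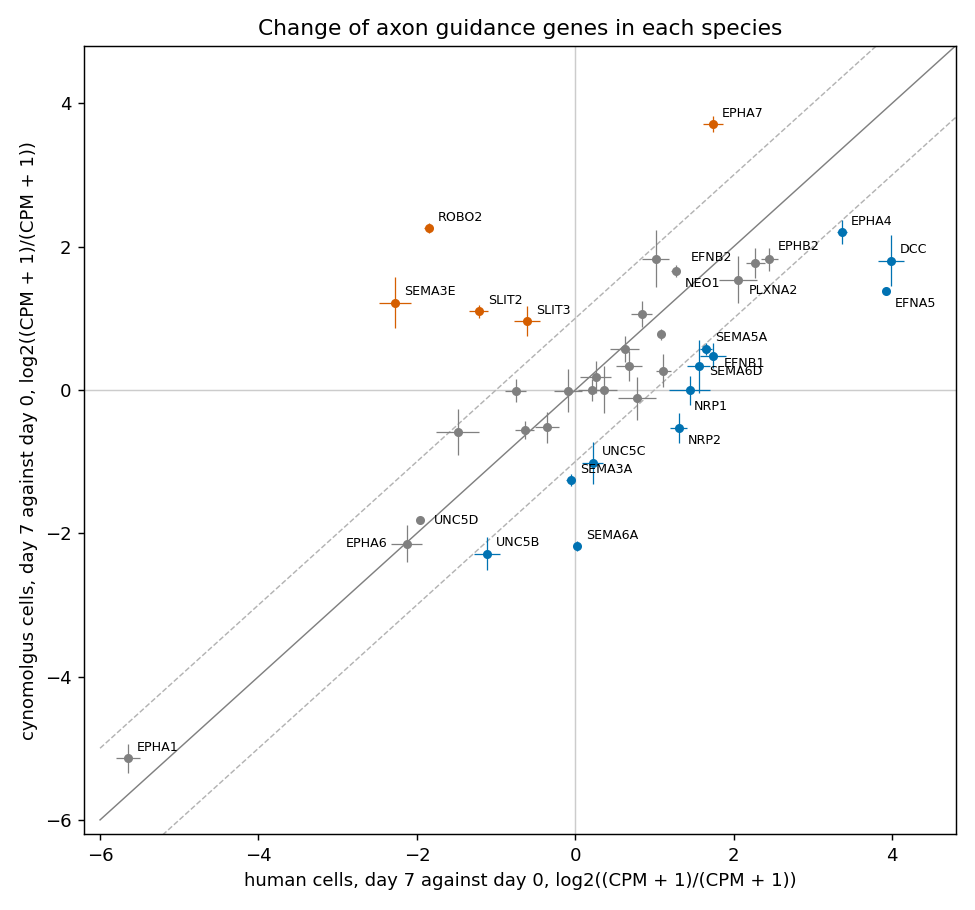
Log2 change from day 0 to day 7 in human cells (horizontal) and cynomolgus cells (vertical), as log2((CPM + 1)/(CPM + 1)), for the 39 guidance genes measured in both species. Bars are 95% counting intervals, the solid line is equal change, the dashed lines lie 1 log2 unit from it, orange marks genes at least 1 above and blue genes at least 1 below; ROBO2, SEMA3E and SLIT2 lie in the upper left and EPHA1 at the lower left.

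The share of cells with a transcript moved with the levels. Cells were thinned to 2500 own-species UMIs, which left 4690 and 7763 human and 1997 and 5957 cynomolgus cells and left out 516, 410, 19 and 510. EFNA5 was found in 28.9% of human cells on day 0 and 97.9% on day 7, and in 40.8% and 73.4% of cynomolgus cells. The human cells with EFNA5 held a mean of 1.45 EFNA5 UMIs on day 0 and 6.20 on day 7, so both the share and the number per cell were higher. Before thinning the shares were 50.6% and 98.7% in human and 60.2% and 85.9% in cynomolgus cells. The human copy of EFNA5 was found in 1.65% and 8.44% of cynomolgus cells. Since 73.4% of cynomolgus cells of day 7 had their own copy, this share need not be the background of human cells.

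EPHA4 was found in 13.6% and 73.6% of human and in 6.06% and 26.1% of cynomolgus cells. EPHA7 was found in 3.33% and 11.5% of human and in 12.1% and 71.6% of cynomolgus cells, so nearly the reverse of EPHA4. The human copy of EPHA7 was found in 8.28% of cynomolgus cells on day 7, where it made up 4.44% of the UMIs of either copy. Before thinning, it was found in 15.9% of cynomolgus cells, at a median of 4596 UMIs per cell, and in 21.2% of human cells, at a median of 4769. After thinning, 71.6% of cynomolgus cells had their own copy, so their human-copy share need not be the background of human cells. In human cells of day 7 the cynomolgus copy was found in 0.953% after thinning. The source of human-copy UMIs in cynomolgus cells was not tested.

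ROBO2 was found in 39.1% and 15.9% of human and in 30.3% and 63.0% of cynomolgus cells, and the human copy of ROBO2 in 1.6% and 2.27% of cynomolgus cells. SLIT2 was found in 9.49% and 4.16% of human and in 19.7% and 32.7% of cynomolgus cells. UNC5D shares were close in the species, at 73.7% and 31.2% of human and at 71.8% and 33.9% of cynomolgus cells. SEMA6A was found in 55.4% and 57.1% of human and in 54.6% and 17.9% of cynomolgus cells. DCC was found in 1.49% and 20% of human cells, and its human copy in 0.15% and 0.47% of cynomolgus cells. The cynomolgus copy of DCC was found in 0.901% and 2.97% of cynomolgus cells and in 0.064% and 0.0386% of human cells.

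**Figure D3:**
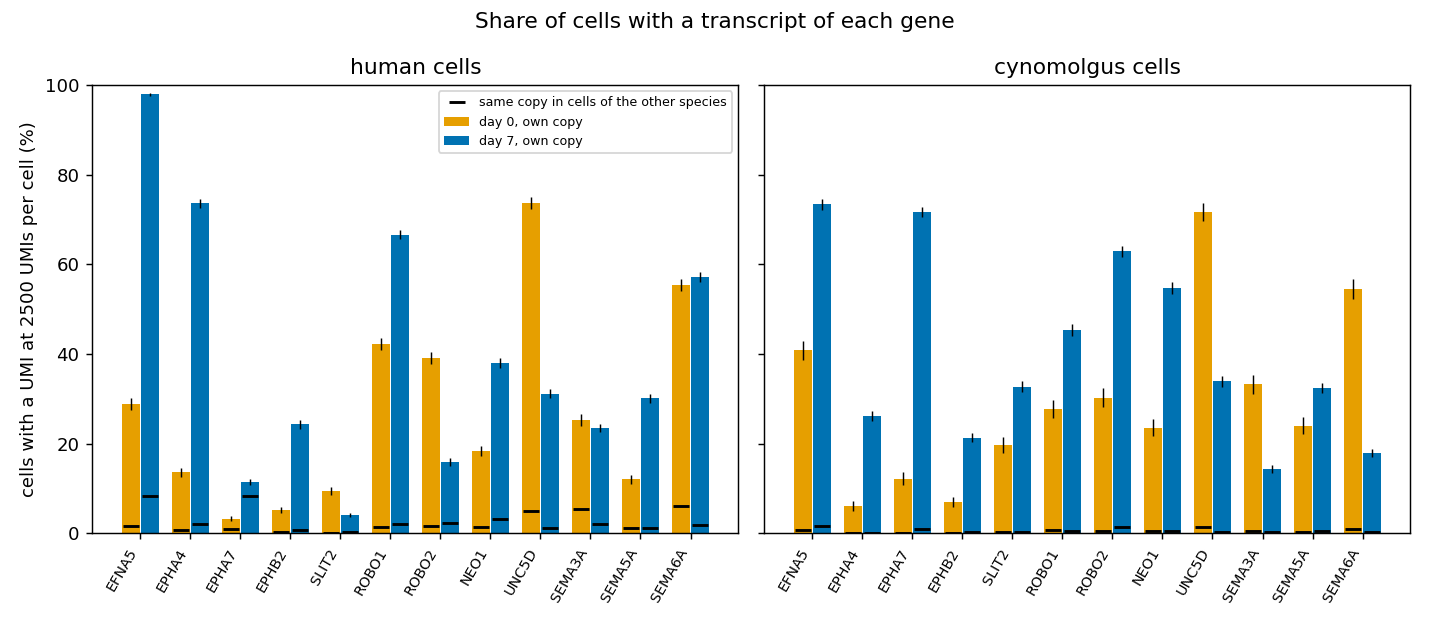
Share of human cells (left) and cynomolgus cells (right) with at least 1 UMI of each gene after thinning to 2500 own-species UMIs, for guidance genes that reached 20% in a group. Bars are day 0 (orange) and day 7 (blue) with exact binomial 95% intervals. Black dashes are the share of cells of the other species with a UMI on the same copy. The dash of EPHA7 in human cells on day 7 lies near the top of its bar. It is from cynomolgus cells, of which 71.6% had their own copy.

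Each group was clustered alone without the guidance genes, and the clusters are given by number and leading genes with no test. On day 0, 1 cluster of 475 human cells (9.12%), led by DLK1, SIX3 and IGFBP5, had the highest sum of neural progenitor markers, 2147 CPM against 676 CPM in the next. In this cluster 18 of the 53 members measured were at least 2-fold higher than in the other human day 0 cells, against 6.16% of 11795 genes, and 3 were lower, against 2.78%. UNC5C was at 263 CPM there (243 to 285) and at 0 to 3.83 CPM in the other 6 clusters. EPHA4 was at 309.5 CPM in the cluster and 40.3 CPM in other cells, EFNA5 at 469.8 and 135 CPM, EPHA7 at 70.5 and 11.2 CPM, and DCC at 51.2 and 3.69 CPM. Of these, all but UNC5C were also among the genes higher on day 7 in human cells. So were EFNB1, EPHB1, EPHB2, NRP1, NRP2, PLXNA2, PLXNC1 and SEMA6D, which were also higher in the cluster. The share of all genes higher in the cluster that were also higher on day 7 was not computed. NTN1, PLXNA3, PLXND1 and SLIT3 were higher in the cluster but under 2-fold between the days. SEMA3E, at 60.4 CPM in the cluster and 17.6 CPM in other cells, was at least 2-fold lower on day 7. The members lower in the cluster were EPHA1, at 27.7 and 58.0 CPM, SEMA3D and SEMA4A.

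In cynomolgus cells of day 0, the cluster with the highest sum of neural progenitor markers held 236 of the cells kept (11.7%), led by NDST4, SMOC1 and LMO2. The sum was 947 CPM against 354 CPM in the next. Clusters were not matched between the species. Here 11 of 45 members were higher, against 3.41% of 10799 genes, and 3 lower, against 5.17%. UNC5C was at 72.9 CPM (58.7 to 89.5) in it and 3.60 CPM in other cells, SEMA3E at 24.8 and 1.80 CPM, ROBO1 at 373 and 132 CPM and EPHA7 at 140.2 and 46.8 CPM. Members higher in both day 0 clusters were DCC, EFNA5, EFNB1, EPHA7, NRP2, PLXNA2, SEMA3E, SLIT3 and UNC5C. Both clusters were picked by their neural progenitor markers, and the share of all genes higher in both was not computed. EPHA1 was lower in both clusters. Pluripotency markers summed to 2279 CPM in the human and 655 CPM in the cynomolgus cluster, the lowest among the day 0 clusters of each species. Without these clusters the log2 change of DCC was 4.75 in human and 2.50 in cynomolgus cells, and that of SEMA3E in cynomolgus cells 2.19.

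**Figure D4:**
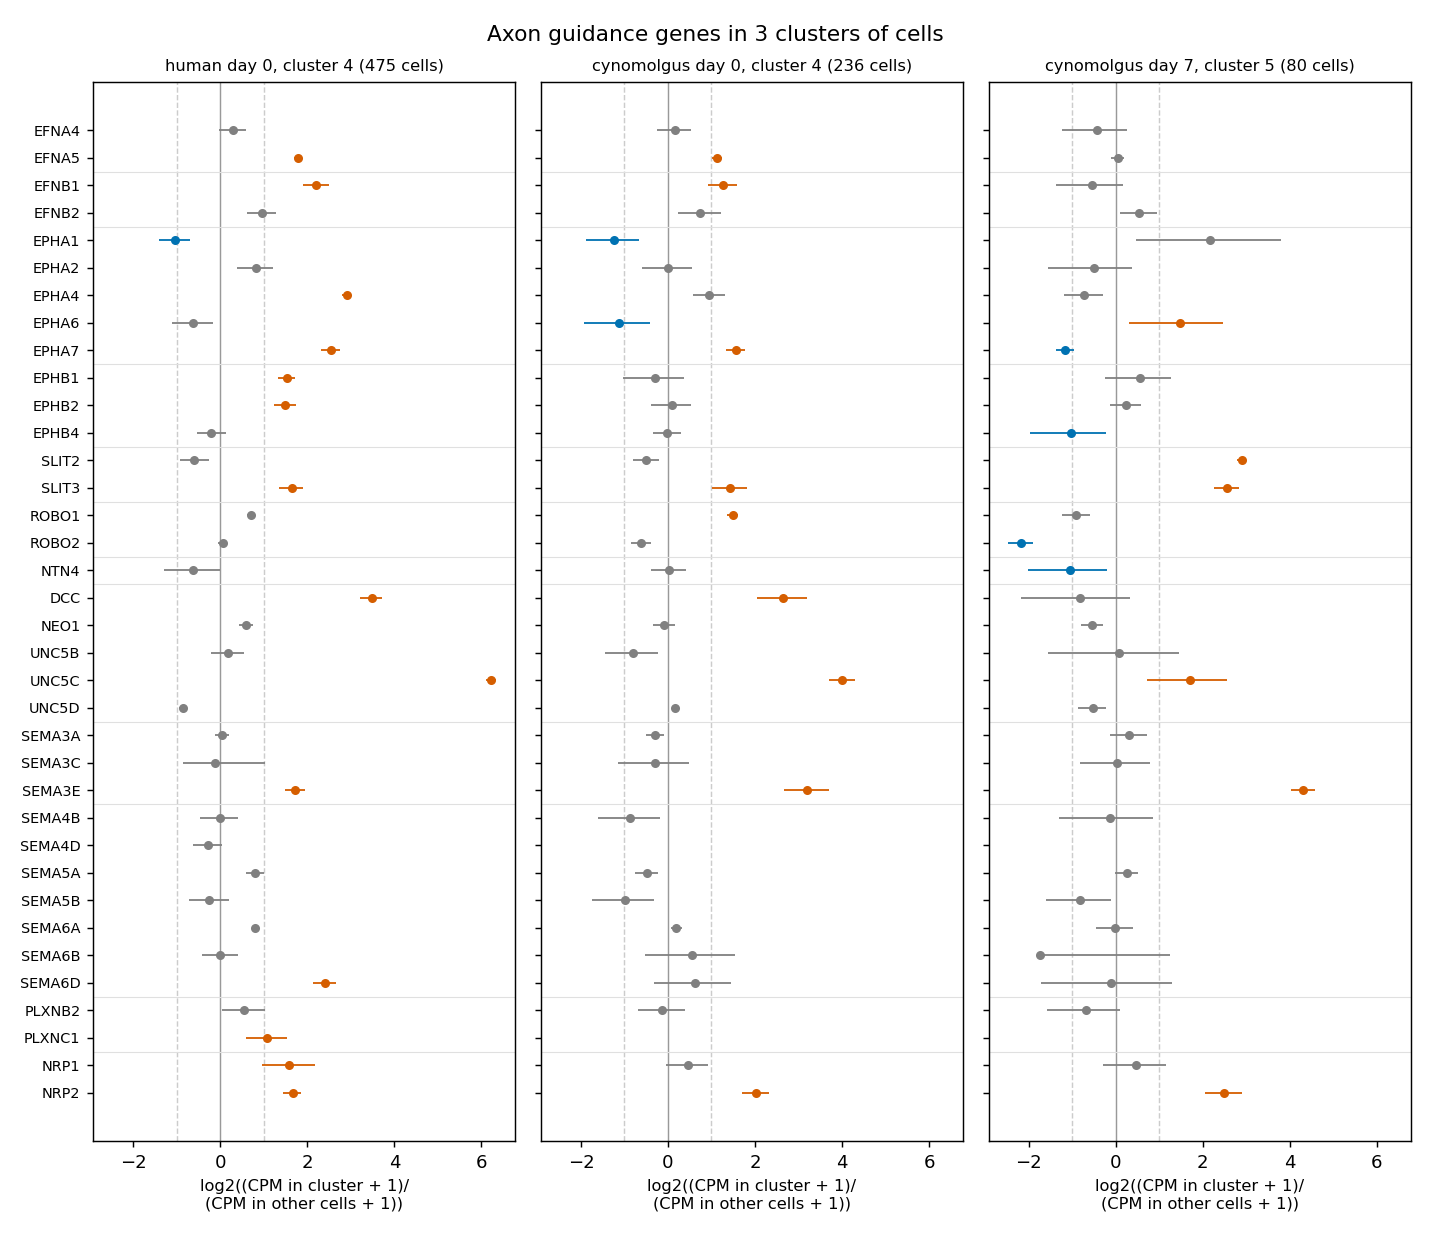
Log2 ratio of the level in a cluster to that in the other cells of the same species and day, as log2((CPM + 1)/(CPM + 1)), for human day 0 cluster 4, cynomolgus day 0 cluster 4 and cynomolgus day 7 cluster 5. Bars span the exact Poisson 95% interval of the cluster's level, dashed lines mark 2-fold, and orange and blue mark genes at least 2-fold higher or lower with 5 CPM in either; UNC5C stands furthest right in both day 0 panels, and SEMA3E, SLIT2 and SLIT3 are to the right in the day 7 panel.

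On day 7 the guidance genes were spread over the clusters except in a few. In cynomolgus cells, a cluster of 80 cells led by CYP1B1, the morphogen SHH and the cadherin CDH1 had 9 of 44 members at least 2-fold higher than in other cells, against 5.65% of 11276 genes, and 6 lower, against 5.8%. SLIT2 was at 1541 CPM in it (1437 to 1650) and 206 CPM in other cells. SLIT3 and SEMA3E were each at 196 CPM there, on 104 UMIs each, against 32.6 and 8.91 CPM in other cells. NTN1 was at 106 CPM (79.9 to 137) against 18.4 CPM, and NRP2 at 85.0 against 14.2 CPM. ROBO2 was lower in the cluster, at 185 CPM against 842 CPM, as was EPHA7, at 345 against 773 CPM. Slits, a netrin and a secreted semaphorin were thus high in cells that were low in ROBO2. Without these 80 cells the log2 change was 0.96 for SLIT2 and 0.85 for SEMA3E, just under 2-fold.

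Over the other cynomolgus clusters of day 7, ROBO2 ran from 544 CPM in 374 cells to 1258 CPM in 1449 cells, and SLIT2 from 147 to 272 CPM. EFNA5 was even, from 592 to 733 CPM over the 6 clusters. DCC was at 45.7 CPM (40.1 to 51.8) in a cluster of 1493 cells led by TUBB3, a neuronal tubulin, and at 9.44 to 15.5 CPM in the other 5.

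In human cells of day 7, 5 clusters of 487 to 2673 cells had medians of 3540 to 7352.5 UMIs, and 2 small clusters stood apart in UMI count and mitochondrial share. EFNA5 was at 2000.1 to 3288 CPM in the 5, highest in 1986 cells led by AKAP6 and SOX6. DCC was at 51.5 to 185 CPM, again highest in those cells. A cluster of 129 cells with a median of 1361 UMIs and 12.9% mitochondrial UMIs had higher values still, 5476 CPM of EFNA5 and 366 CPM of DCC. A cluster of 87 cells with a median of 1709 UMIs and 0.129% mitochondrial UMIs had 257 CPM of EFNA5. On day 0 a cluster of 546 human cells with a median of 1879.5 UMIs and 1.72% mitochondrial UMIs had a guidance gene sum of 422 CPM, against 2030 to 4188 CPM in the other 6. Without the clusters of 129 and 546 cells, no count of higher or lower members changed by more than 1.5 times. The cluster of 87 cells was kept in this alternative.

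Few cells of day 7 had a UMI of STMN2, a tubulin regulator of growing neurites. They were 43 human and 14 cynomolgus cells, a split by this 1 gene of the neuron list, made after the values were seen. Between the days STMN2 went from 1.87 to 1.14 CPM in human cells, so it was not higher after induction. In cynomolgus cells it went from 0.281 to 0.837 CPM, and it stayed under the minimum of 5 CPM in both species. Whether cells with an STMN2 UMI were neurons was not tested. The share of all genes that differed in them was not computed. In these 43 human cells DCC was at 381 CPM (304 to 471) against 124 CPM in the other human cells, and 20 of the 43 had a DCC UMI. In the 14 cynomolgus cells DCC was at 722 CPM (536 to 952) against 15.8 CPM, on 50 UMIs in 6 cells. The interval treats these UMIs as independent, so it leaves out the spread between cells. The median UMIs per cell were 4367 and 4133, near those of other cells, at 4769 and 4599. UNC5D was lower in the human cells with STMN2, at 89.6 CPM (54.7 to 138) against 186 CPM, and so was SEMA3A, at 40.3 CPM (18.4 to 76.5) against 116 CPM. In the cynomolgus cells with STMN2, UNC5D was at 303 CPM (188 to 464) against 212 CPM, so not lower, and SEMA3A had 1 UMI. ROBO1 was at 477 CPM (328 to 670) against 275 CPM in cynomolgus cells and at 439 against 523 CPM in human cells. EFNA5 was at 2938 against 2413 CPM in human and at 954 against 678 CPM in cynomolgus cells.

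Members with no cynomolgus gene of their symbol were read on the human copy in cynomolgus cells. SEMA4D, a semaphorin of immune and neural cells that binds PLXNB1, was at 47.6 CPM (43.6 to 52.0) on the human copy in cynomolgus cells on day 0 and at 24.1 CPM (22.5 to 25.8) on day 7. That is 128% and 105% of the level in human cells, while human mitochondrial UMIs in cynomolgus cells were at 5.01% and 0.746% of theirs in human cells. SEMA6C was at 77.0% and 44.4% of the human level. The other 8 were lower or near 0, with PLXNC1 at 21.4% and 5.38%.

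Other genes of these pathways were read from lists of co-ligands and effectors. Of 100 listed genes 85 were measured in human cells, 16 higher (18.8%) and 9 lower (10.6%) on day 7, against 14.9% and 14.4% of all measured human genes, with a median log2 change of 0.29. In cynomolgus cells 79 were measured, 12 higher (15.2%) and 10 lower (12.7%), against 13.8% and 11% of all measured cynomolgus genes, with a median of 0.24. In human cells the 3 largest increases were in FLRT2, a ligand of UNC5 receptors, from 11.5 to 56.9 CPM, SRGAP3, a GTPase regulator downstream of robo, from 36.1 to 166 CPM, and NRCAM, an adhesion partner of neuropilins, from 26.1 to 98.6 CPM. The decreases included KDR, a VEGF receptor, from 32.6 to 2.97 CPM, and VAV3, an exchange factor of Eph signalling, from 57.5 to 8.46 CPM.

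In cynomolgus cells the largest increases on these lists were in DPYSL5, a collapsin response mediator protein, from 68.9 to 347 CPM, RGMA, the NEO1 ligand, from 59.2 to 272 CPM, and FLRT3, from 6.93 to 26.4 CPM. The largest decreases were in RND2, from 96.4 to 32.8 CPM, VASP, an actin regulator, from 156 to 57.2 CPM, and CRMP1, from 57.9 to 22.7 CPM. RGMA and its receptor NEO1 were thus both higher on day 7 in these cells. The same held in human cells, where RGMA went from 28.3 to 63.0 CPM.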

How the data were processed

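The deposited files hold whole UMI counts per gene and barcode, 1 matrix for day 0 (12093 barcodes, 71377836 UMIs) and 1 for day 7 (16403 barcodes, 99430745 UMIs). They were made with Cell Ranger 7.1.0 per the file headers, while the submitters' processing notes name version 7.2.0 and GRCh38. Gene prefixes in the files name GRCh38 and Macaca_fascicularis 6.0, Ensembl release 107. Whether intronic reads were counted, and how reads matching both genomes were assigned, is not given in the sources used here. Gene symbols and identifiers are those of the files.

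Barcodes needed 1000 UMIs, 500 genes and at most 20% mitochondrial UMIs, and at least 90% of UMIs on 1 genome. No doublet caller was run. Counts were summed per species and day and scaled to CPM, and changes are log2(CPM + 1) differences, which understate the change of low genes. CPM have exact Poisson, folds exact conditional binomial and shares exact binomial (Clopper-Pearson) 95% intervals, all for counting error only. A count of 0 was read against 3 counts, which on days 0 and 7 equals 0.0865 and 0.0686 CPM for human cells and, for cynomolgus cells, 0.281 and 0.0866 CPM. Shares used cells thinned to 2500 UMIs. Clusters were made per species and day without the guidance genes (2000 variable genes, 30 components, 15 neighbours, Leiden resolution 0.5). At the 5 CPM limit, NTNG1 (5.57 CPM) was just inside and SEMA4A (4.79 CPM) just outside in human cells, and SEMA3F (5.15 CPM) and SEMA3D (4.73 CPM) in cynomolgus cells.

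The guidance genes, the lists of pathway and marker genes, the alternatives and the rule on which genes are named were all chosen with earlier results of these data known. The rule gives all 4 values for members at 20 CPM or more in a group, names members at 5 to 20 CPM where 2-fold apart, and names the 3 largest changes each way of pathway genes at 20 CPM or more, of which 1 human decrease is not reported here. No test was run, since each day is 1 library. The step from summed counts to log2 changes was run on simulated counts as a check of its arithmetic. The species call, cell limits, clustering and thinning were not tested in this way. Alternatives changed the species call, the UMI, gene and mitochondrial limits, the CPM total, its scaling, the weight given to each cell, the minimum level, the pseudocount, the copies counted, the thinning depth and the cluster resolution, and left out clusters or shared barcodes. Clustering used scanpy 1.11.5 with leidenalg 0.10.2 and scikit-learn 1.9.0, intervals used scipy 1.17.1, and sums used numpy 2.4.6 and pandas 2.3.3 under Python 3.11.15, with plots by matplotlib 3.10.9.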

Additional observations from a re-analysis of the deposited data

Results flagged for a closer look

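For 3 guidance genes the change from day 0 to day 7 was at least 2-fold in opposite directions in the species. The log2 change in cynomolgus cells exceeded that in human cells by 4.11 for ROBO2, by 3.49 for SEMA3E and by 2.32 for SLIT2. With 1 library per day, these differences were not tested. Without a cluster of 80 of the 6467 cynomolgus cells of day 7, the cynomolgus changes of SLIT2 and SEMA3E were 0.96 and 0.85, under 2-fold, and with species called at 80% of UMIs that of SEMA3E was 0.47. SEMA4D has no cynomolgus gene of its symbol in the files, and its human copy was at 47.6 CPM in cynomolgus cells on day 0 and at 24.1 CPM on day 7, both above the limit that a count of 0 allows.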

How the results depend on the processing

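Counts of higher and lower members stayed within 1.5 times of their main value in 95 of 96 recomputations. The exception was the count of members whose change was at least 1 log2 unit above in cynomolgus cells, 3 in place of 5 with a minimum of 20 CPM. UNC5C in cynomolgus cells turned from -1.02 to 0.45 without the day 0 cluster with the most neural progenitor markers. With species called at 80% of UMIs, changes in cynomolgus cells were 0.16 for DCC, 0.47 for SEMA3E and -1.75 for UNC5C, in place of 1.80, 1.22 and -1.02, and the causes were not tested. EPHA1 depended on the pseudocount, at -7.88 and -7.48 with 0.1 CPM and -3.57 and -3.08 with 5 CPM in human and cynomolgus cells. With 5 CPM added, changes that fell inside 2-fold were NRP1 at 0.84 and UNC5B at -0.87 in human cells, and SEMA3C at 0.87, SEMA3E at 0.82, SEMA5B at 0.95 and UNC5C at -0.70 in cynomolgus cells. UNC5C in cynomolgus cells was also inside 2-fold with CPM of all own-species UMIs, with equal weight per cell and with both copies summed, at -0.98, -0.93 and -0.97. SEMA6B in human cells was at 1.01 with CPM of all own-species UMIs, in place of 0.95. Without the day 0 cluster with the most neural progenitor markers, ROBO1 was at 1.05, SLIT3 at 1.22 and SEMA5B at 0.97 in cynomolgus cells. Rescaling day 7 by the median ratio moved no change across 2-fold. Of 1120 recomputed log2 changes 1024 moved by less than their counting interval, 95 moved by more and 1 reversed. Of the 3 members at least 2-fold in opposite directions in the species, 1 was left without the cluster of 80 cynomolgus cells. Median changes ran from 0.19 to 0.95 in human and from 0.00 to 0.52 in cynomolgus cells. Of 288 shares of cells, 280 moved with the thinning depth. Of 280 recomputed values of the highest cluster of a member, 81 moved with the cluster resolution.

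Leaving out low-count clusters, the cluster of 80 cells led by CYP1B1 and SHH, or barcodes present in both libraries was chosen after seeing the data. No paired analysis was possible because each day is 1 library. Without replicates, spread between cultures is unknown, and counting intervals are wide for genes near 0, such as EPHA1 on day 7, on 6 and 4 UMIs.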
